A study of Mus musculus with 12 samples.

Results

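The mitochondrial ribosomal protein genes were taken as every protein-coding row of the liver count table whose GENCODE M21 symbol begins with Mrpl or Mrps followed by a digit. The rule found 78 of the 53465 genes in the table, 49 with a large-subunit symbol (Mrpl) and 29 with a small-subunit symbol (Mrps). The rule used names alone and no measured value. Of the 78, 76 averaged 10 or more normalised counts over the livers, 48 of the large and 28 of the small subunit. A normalised count is the count of a gene divided by the size factor of its liver.

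Mitochondria carry ribosomes of their own, which translate the few mRNAs transcribed from mitochondrial DNA, all of them for core subunits of the respiratory chain and the ATP synthase. The RNA of these ribosomes is mitochondrial, whereas every protein of them is encoded in the nucleus, made in the cytosol and imported. Some of the proteins descend from bacterial ribosomal proteins and others are found only in mitochondria. The large subunit joins amino acids at its peptidyl transferase centre, and the small subunit binds the mRNA and decodes it. Liver is rich in mitochondria, which serve fatty acid oxidation, the urea cycle and gluconeogenesis.

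The livers came from C57BL/6N mice, with 4 animals called young at 3 months, 4 called middle-aged at 12 months and 4 called aged at 18 months. No group carried a genetic change or a treatment. The labels describe total RNA prepared from young and old livers with a directional kit and do not say how the middle-aged livers were prepared, and each library was from a single animal. The series' design text speaks of 3 biological replicates per age, whereas the labels and the table hold 4 libraries, and n = 4 below counts libraries. Gene counts ranged from 8124312 to 10527159 per liver, so that 3 counts, the floor used here, were a CPM (counts scaled to a common total) of 0.285 to 0.369. The 78 members took 0.223 to 0.284% of those counts. The libraries were not alike in other respects. In young replicate 2, mitochondrially encoded genes took 19.2% of gene counts, against 5.48 to 10.7% elsewhere, and more genes were detected in young replicate 3 (22284) and middle-aged replicate 1 (19982) than in the other livers. The mix of the added spike-in RNA differed between replicates 1 and 2 and replicates 3 and 4 at every age: over 41 spike-ins, the SD of the log2 ratio between livers was 0.131 to 0.283 within these sets and 1.13 to 1.25 across them. Hepatocyte markers were abundant throughout, with 803696 to 1056065 normalised counts in sum over the 7 of 8 markers found in the table. In bulk tissue, fewer cells of a type and less RNA per cell cannot be told apart.

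The genes were spread over 17 chromosomes, with 11 on chromosome 11 and 8 on chromosome 17. Many shared a start region with a neighbour. In 33 of the 78 (42.3%), the annotated start lay within 1000 bases of the start of a protein-coding gene on the opposite strand, against 10.9% of the 21865 protein-coding genes in the table and 16.3% of the 11356 that averaged 10 or more normalised counts. Mrps11 and Mrpl46, a small- and a large-subunit gene, were such a pair with each other. Other partners included Ndufs6 of respiratory complex I (next to Mrpl36), Twnk, the mitochondrial DNA helicase (next to Mrpl43), and Sars2, the mitochondrial seryl-tRNA synthetase (next to Mrps12).

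The promoter windows held some short motifs more often than those of other genes. RefSeq windows of 250 bases before to 50 bases after the start (GRCm38.p6) were matched for 69 members, with 75 windows in all, and searched on both strands. The ETS/GABP motif CCGGAAG, bound by factors of many nuclear genes for mitochondrial proteins, was in 34.7% of the members' windows, in 8.86% of all 32851 windows and in 11.6% of the windows of protein-coding genes. The YY1 motif AAGATGGCG was in 10.7%, against 1.4% and 1.83%. The SP1 motif GGGCGGG was in 42.7%, against 25.6% and 33.9%, while CCAAT was in 30 of the 75 windows, against 37.4% and 38.2%. The TATA box letters TATAAA were in 6.67%, against 13.6% and 12.6%. None of the 5 motifs lies within another, and a match of letters does not show that a factor binds.

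Windows of 4 genes are shown, each 280 bases from 250 before to 30 after the start, because they belong to members called in the comparisons below or to the shared pair. Capitals mark the motifs named above, on either strand. Mrpl57 (chr14:57825989-57826268, plus strand) and Mrps22 (chr9:98601650-98601929, minus strand) hold ETS/GABP and SP1 matches, Mrpl20 (chr4:155802628-155802907, plus strand) holds none of the 5 in the stretch shown and a CCAAT match in the 20 bases beyond it, and Mrps11 (chr7:78782881-78783160, plus strand) holds YY1 and SP1 matches and overlaps the window of Mrpl46 on the other strand.
Mrpl57: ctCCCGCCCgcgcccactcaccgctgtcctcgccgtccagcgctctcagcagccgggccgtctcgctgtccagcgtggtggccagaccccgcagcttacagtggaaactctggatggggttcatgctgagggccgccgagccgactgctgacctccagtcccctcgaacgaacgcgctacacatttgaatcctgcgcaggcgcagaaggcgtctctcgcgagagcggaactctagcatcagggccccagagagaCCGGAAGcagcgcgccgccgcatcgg
Mrps22: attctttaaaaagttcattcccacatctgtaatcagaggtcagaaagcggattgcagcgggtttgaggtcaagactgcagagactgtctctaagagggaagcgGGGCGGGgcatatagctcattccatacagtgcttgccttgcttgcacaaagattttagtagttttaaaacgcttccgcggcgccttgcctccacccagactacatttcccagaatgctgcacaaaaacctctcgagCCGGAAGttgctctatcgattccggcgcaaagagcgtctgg
Mrpl20: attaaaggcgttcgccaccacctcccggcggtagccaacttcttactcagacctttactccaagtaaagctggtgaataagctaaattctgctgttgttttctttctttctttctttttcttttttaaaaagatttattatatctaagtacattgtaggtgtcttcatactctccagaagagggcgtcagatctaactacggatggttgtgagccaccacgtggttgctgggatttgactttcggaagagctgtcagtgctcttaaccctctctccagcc
Mrps11: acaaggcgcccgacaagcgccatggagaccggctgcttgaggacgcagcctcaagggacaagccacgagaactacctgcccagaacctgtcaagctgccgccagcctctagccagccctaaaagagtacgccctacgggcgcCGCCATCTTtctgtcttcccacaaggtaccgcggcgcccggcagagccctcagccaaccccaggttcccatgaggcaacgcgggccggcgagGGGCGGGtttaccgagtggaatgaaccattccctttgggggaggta

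Levels differed widely among the members. The 76 expressed genes had mean normalised counts of 64.3 to 858 over the 12 livers, with a median of 294, and the medians were 314 for the large and 257 for the small subunit. Divided by exonic length, so that genes can be compared, the median level was 115 normalised counts per kb, 137 for the large and 81.5 for the small subunit. On the same scale the median was 31.5 over all 11804 genes with a mean of at least 10, 1008.6 over 79 genes for cytosolic ribosomal proteins and 767 over 76 nuclear genes for respiratory chain subunits.

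The 5 members with the highest level per kb were Mrpl14, Mrpl34, Mrpl27, Mrps24 and Mrps7. Mrpl14, a rRNA-binding protein at the face toward the small subunit, had 626 normalised counts per kb of exonic length, Mrpl34 had 576, and Mrpl27, which reaches toward the peptidyl transferase centre, had 477. Mrps24, at the entry of the mRNA channel, had 434 and Mrps7, which organises the head of the small subunit, had 414. Among the expressed members Mrpl23, at the exit of the polypeptide tunnel, was lowest at 16.2. The order depended on the length used: per kb of the median annotated transcript Mrpl14 was still first at 921, but Mrps7 was 13th at 437 and Mrpl23 was 59th at 115. Lines in the plot of levels overlap between most neighbours. Because the members moved together from liver to liver (below), that overlap cannot decide whether adjacent ranks differ, and no test of ranks was made.

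**Figure D1:**
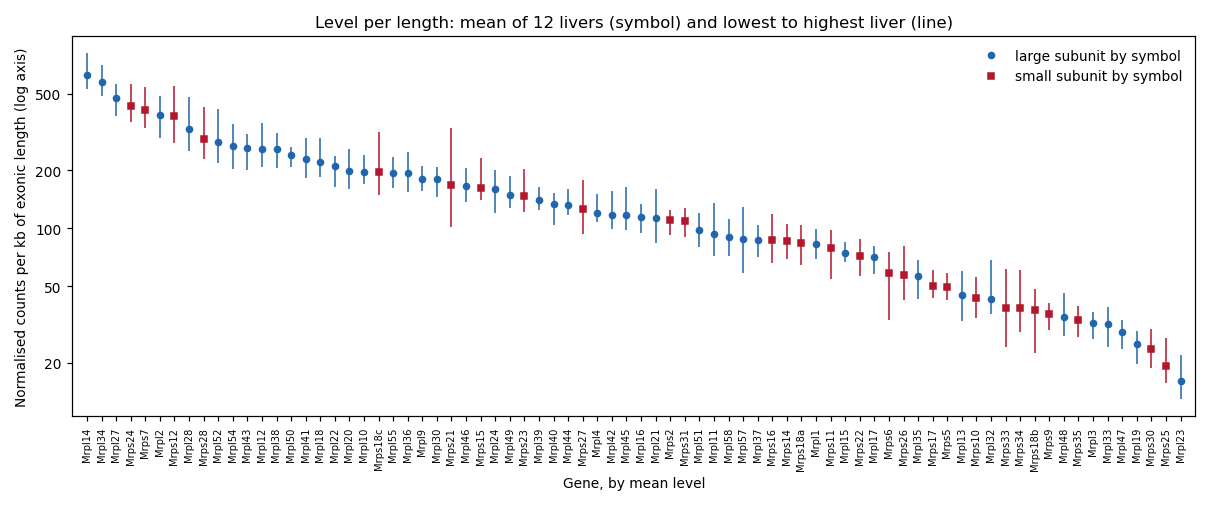
Level of the 76 expressed mitochondrial ribosomal protein genes in normalised counts per kb of exonic length (log axis). Symbols are means of 12 livers, blue circles for the large and red squares for the small subunit by symbol, and lines run from the lowest to the highest liver. Means ranged from 16.2 (Mrpl23) to 626 (Mrpl14).

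The genes were measured with modest spread. The coefficient of variation between livers of the same age had a median of 12.2% over the 76 genes, where counting error alone gives 5.84%. For the 71 members with a mean of 100 to 1000 it was 11.8%, against 12.4% for all 5927 genes in that range. Mrpl50, found only in mitochondria, varied least at 4.86%. Mrps33 at 30.5% and Mrps21 at 29.7% varied most, with means of 64.3 and 125 normalised counts.

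The members moved together from liver to liver. Each gene was expressed as the difference of its log2 normalised count from its own mean over the 12 livers, and the median over the 76 genes was taken in each liver. In the young livers, replicates 1 to 4, these medians were 0.107, 0.287, 0.118 and 0.134. In the middle-aged livers they were -0.005, -0.069, -0.158 and -0.12. In the aged livers they were 0.161, -0.191, -0.226 and -0.032. All 4 young livers were above every middle-aged liver, whereas the aged livers were divided, with aged replicate 1 among the young and the other 3 among or below the middle-aged. The median over all genes was between -0.004 and 0.015 in every liver.

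Counted gene by gene, the pattern was the same. The number of the 76 genes above their own mean was 60, 70, 58 and 65 in the young livers and 37, 17, 7 and 12 in the middle-aged. It was 70, 6, 3 and 29 in the aged livers. Young replicate 2 and aged replicate 1 shared the highest number. The first was the library with the largest mitochondrial share (19.2%) and the other the library with the smallest (5.48%). The part of that share in the result was not tested.

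**Figure D2:**
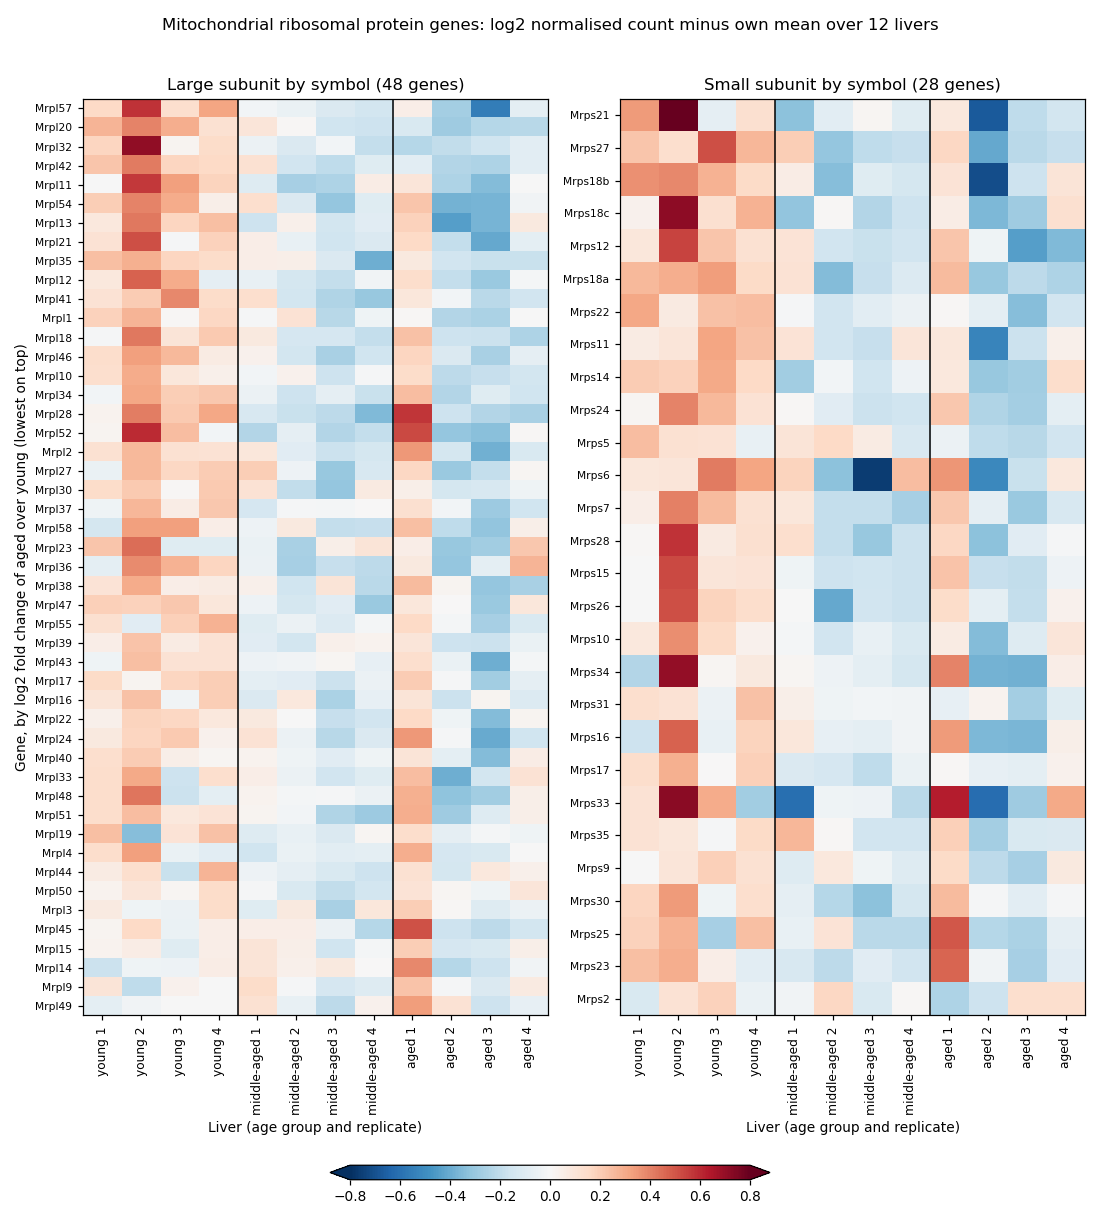
Differences of log2 normalised counts from each gene's own mean over 12 livers, for 48 large-subunit (left) and 28 small-subunit genes (right). Columns are livers by age and replicate, red is above and blue below the mean, and rows run from the lowest log2 fold change of aged over young on top. Young replicate 2 and aged replicate 1 are red in 70 of 76 rows, and aged replicate 3 in 3.

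Large- and small-subunit genes were then compared. The summed normalised counts of the large subunit were 2.1, 2.01, 2.04 and 2.12 times those of the small subunit in the young livers. The ratio was 2.13, 2.21, 2.14 and 2.17 in the middle-aged livers and 2.2, 2.22, 2.14 and 2.14 in the aged. Every young liver lay below every older liver, with means of 2.07 ± 0.0512, 2.16 ± 0.0359 and 2.18 ± 0.0412 (SD, n = 4 livers each). The differences were small, 0.065 on the log2 scale for middle-aged and 0.071 for aged against young, and no test was made of them. Aged replicate 1, which sat with the young livers by level, had a ratio of 2.2 and sat with the older livers here. Within the spike-in sets the aged-against-young difference was 0.102 in replicates 1 and 2 and 0.04 in replicates 3 and 4.

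**Figure D3:**
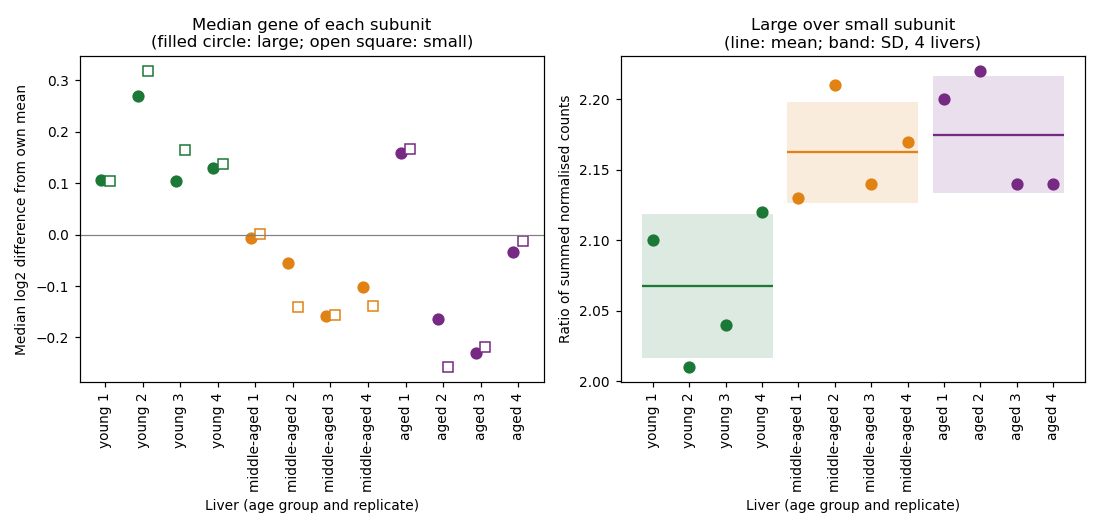
Left, median log2 difference from the own mean over 48 large-subunit (filled circles) and 28 small-subunit genes (open squares) in each liver. Right, ratio of summed normalised counts, large over small subunit, with points for livers, lines for means and bands for SD (n = 4). The 4 young ratios, 2.01 to 2.12, are below the 8 older ones, 2.13 to 2.22, on an axis that does not start at 0.

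Relative to all genes, most members had fewer counts in middle-aged than in young livers. Log2 fold changes were below 0 for 74 of the 76 genes, against 48.7% of all genes, with a median of -0.244 where the median of all genes was 0.008. Medians were -0.208 for the large and -0.316 for the small subunit. DESeq2 called 3 of the 76 members tested, all lower (6.41% of all genes tested were called, and 2.9% called lower), so that the share of members called was near the background. The genes were Mrpl20, Mrpl42 and Mrps17. An unadjusted p was below 0.05 for 36 members, all lower, where 10.6% of all genes were so. Without young replicate 2 no member was called (2.83% of all genes), and without aged replicate 1, which shares the estimate of spread, 14 were (9.72% of all genes). edgeR called none (2.17% of all genes). Groups did not overlap, with every middle-aged liver below every young one, for 28 of the 76 genes, where 7.75% of all genes did so. No member was higher without overlap, where 7.84% of all genes were.

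Aged livers gave the same direction with more spread. Fold changes against young, on the log2 scale, were below 0 for 73 of the 76 genes, against 48.6% of all genes, with a median of -0.21 (all genes 0.008). Medians were -0.194 for the large and -0.251 for the small subunit. DESeq2 called 4 of the 77 members tested, all lower: Mrpl20, Mrpl42, Mrpl57 and Mrps22 (3.58% of all genes were called, and 1.71% called lower). edgeR called 1 member, Mrpl20 (1.31% of all genes). The unadjusted p was below 0.05 for 27 members, all lower, where 8.01% of all genes were so. Aged replicate 1 weighed on these counts. Without it 21 members were called, all lower, with a median of -0.307, and the share of all genes called was 10.5%. Without young replicate 2 there were 2, where 1.92% of all genes were called. Groups did not overlap for 9 of the 76 genes, all lower (3.81% of all genes, and 4.09% higher), and for 40 of 76 without aged replicate 1 (10.2% of all genes).

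Aged and middle-aged livers were close. Values below 0 were found for 31 of the 76 genes, against 49.8% of all genes, with a median of 0.021 (0.022 for the large and 0.02 for the small subunit). DESeq2 called none of 76 members (1.14% of all genes were called), 2 had an unadjusted p below 0.05, 1 of them lower (4.98% of all genes), and edgeR called none (0.0909% of all genes). Those 2 were Mrps5, with a log2 fold change of -0.21 ± 0.1 (SE), and Mrpl50, with 0.17 ± 0.08, and no gene separated the groups (3.08% of all genes did so in the lower direction and 3.08% in the higher). The comparisons against young share the young livers, so that their agreement is not independent.

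**Figure D4:**
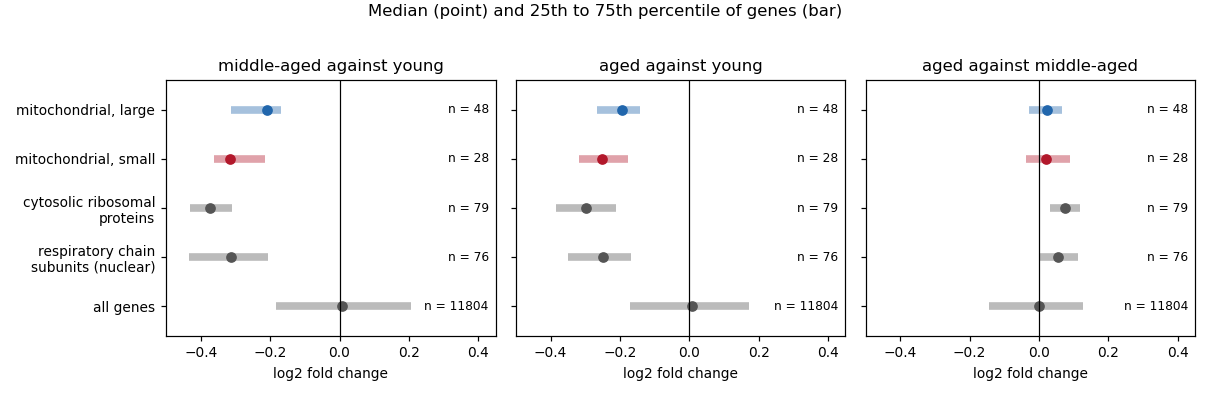
Log2 fold changes of large- and small-subunit mitochondrial ribosomal protein genes beside 79 cytosolic ribosomal protein genes, 76 respiratory chain subunit genes of the nucleus and 11804 genes in all. Points are medians over genes and bars run from the 25th to the 75th percentile. Both older groups sit below 0 against young, at medians of -0.316 to -0.194 for the mitochondrial ribosomal genes, and near 0 against each other.

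The direction rested on scaling to all genes. With spike-in totals as the scale the median member was 0.939 higher in aged and 1.22 higher in middle-aged than in young livers, and the median of all genes was 1.164 and 1.469 higher. Spike-ins took 3.5 to 10.6% of all counts in young livers, with young replicate 2 the highest. They took 1.59 to 2.73% in middle-aged and 1.87 to 3.51% in aged livers. The cause of these uneven shares was not tested. Relative to all genes the members stood at -0.224 and -0.249 with spike-in totals, -0.217 and -0.249 with total gene counts, and -0.218 and -0.252 with the size factors used throughout. The members are short, with a median transcript of 1228 bases against 2709.5 for all genes. After offsets for exonic length and GC content the members stood at -0.169 in both comparisons. In replicates 1 and 2 alone they stood at -0.179 for aged and -0.245 for middle-aged, and in replicates 3 and 4 at -0.246 and -0.28, with no member called within either set.

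Across the 3 ages together the likelihood ratio test called 4 members, Mrpl20, Mrpl42, Mrps22 and Mrpl57 (6.96% of all genes tested were called). edgeR called 1 of them (2.01% of all genes). Mrpl20 (chr4:155802878-155809975, plus strand) is the counterpart of bacterial L20, which binds the large rRNA early in assembly. It had 393, 429, 399 and 355 normalised counts in the young livers, 348, 328, 292 and 291 in the middle-aged, and 299, 268, 278 and 279 in the aged. Each young liver was above each older liver, and 3 of the 4 aged livers were below all middle-aged ones. The log2 fold change was -0.49 ± 0.1 (SE) for aged against young (DESeq2 adjusted p = 0.000312) and -0.32 ± 0.1 for middle-aged against young (adjusted p = 0.0286). Mrpl20 fell by 28.6% from young to aged and was the member called by edgeR, across the 3 ages and in aged against young.

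Mrpl42, of the large subunit and found only in mitochondria, had 503, 576, 486 and 482 normalised counts in the young livers, 470, 388, 374 and 403 in the middle-aged, and 407, 367, 364 and 407 in the aged. No older liver reached the lowest young one, and middle-aged replicate 1 came nearest. Mrpl42 fell in both, with log2 fold changes of -0.4 ± 0.1 for aged (DESeq2 adjusted p = 0.0063) and -0.32 ± 0.1 for middle-aged against young (adjusted p = 0.0322).

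Mrpl57, another mitochondria-specific protein of the large subunit, had 286, 381, 281 and 318 normalised counts in the young livers, 252, 246, 236 and 231 in the middle-aged, and 265, 212, 174 and 242 in the aged. The young livers were again above all others, with young replicate 2 highest and aged replicate 3 lowest. It fell by 0.5 ± 0.15 on the log2 scale in aged livers (DESeq2 adjusted p = 0.0243). In middle-aged livers the value was -0.39 ± 0.15 with an adjusted p of 0.0804.

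Mrps22, a mitochondria-specific protein of the small subunit, had 352, 299, 335 and 337 normalised counts in the young livers, 283, 256, 268 and 275 in the middle-aged, and 286, 269, 225 and 256 in the aged. All older livers were below all young ones, and here young replicate 2 was the lowest of the young. Its log2 fold change was -0.36 ± 0.1 for aged (DESeq2 adjusted p = 0.025) and -0.29 ± 0.1 for middle-aged livers (adjusted p = 0.0631).

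Mrps17, which binds the small rRNA, was called lower in middle-aged but not in aged livers. It had 358, 396, 326 and 371 normalised counts in the young livers, 300, 297, 283 and 313 in the middle-aged, and 327, 311, 308 and 333 in the aged. The middle-aged livers lay below all young ones, and the aged livers overlapped with the lowest young liver. The log2 fold change was -0.28 ± 0.09 for middle-aged (DESeq2 adjusted p = 0.0406) and -0.18 ± 0.09 for aged livers (adjusted p = 0.318). The aged-against-middle-aged difference was 0.1 ± 0.09 (adjusted p = 0.836). The middle-aged call was lost in 21 of 23 alternative settings, with adjusted p-values of 0.0286 to 0.825 over the settings.

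**Figure D5:**
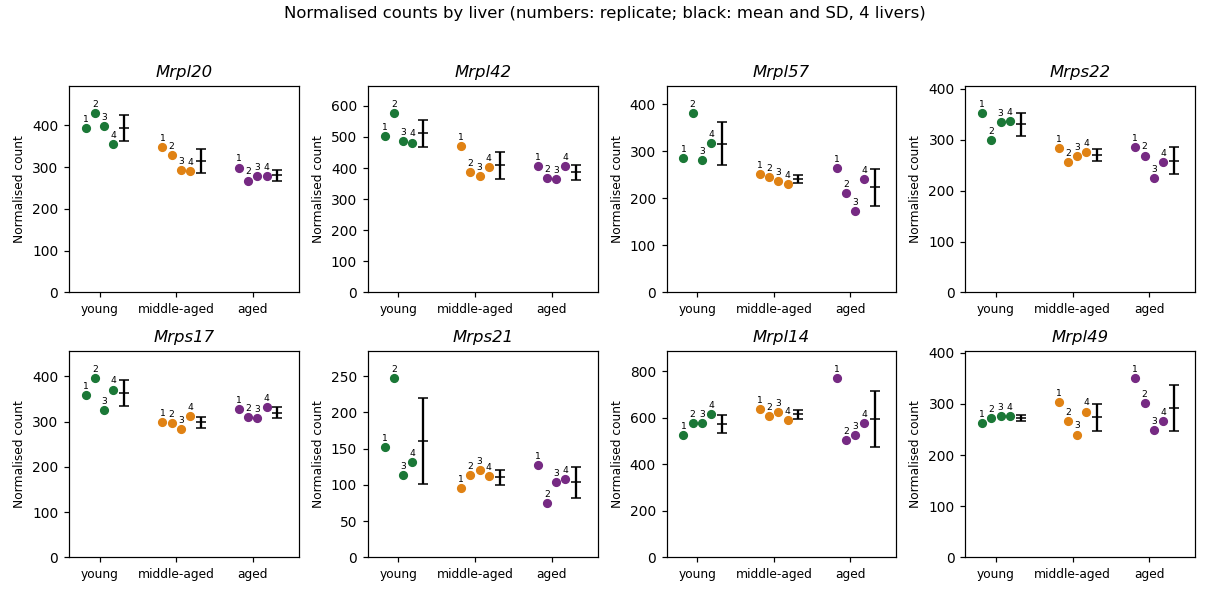
Normalised counts of 8 members in each liver, with the replicate number beside each point and mean and SD (n = 4) in black. Mrpl20, Mrpl42, Mrpl57 and Mrps22 have all 4 young livers above the older ones, Mrps17 all 4 above the middle-aged ones. Mrps21 varies widely among young livers, and Mrpl14 and Mrpl49 have aged replicate 1 as the highest liver.

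The lowest log2 fold changes outside the calls were in genes of wide spread. Mrps21 had 152, 247, 114 and 131 normalised counts in the young livers, 95.3, 113, 121 and 112 in the middle-aged, and 127, 75.1, 104 and 108 in the aged. Young replicate 2 stood far above the rest and the groups overlapped. On the log2 scale the difference was -0.63 ± 0.24 for aged (DESeq2 adjusted p = 0.128) and -0.54 ± 0.24 for middle-aged livers (adjusted p = 0.16). Mrpl32, whose precursor is processed by a mitochondrial protease before it enters the ribosome, had 213 to 343 in young, 184 to 207 in middle-aged and 179 to 198 in aged livers. The young livers were above all older ones, while the older ages overlapped, with log2 fold changes against young of -0.45 ± 0.15 (adjusted p = 0.0588) and -0.38 ± 0.15 (adjusted p = 0.0985).

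The other end of the range held Mrpl49, Mrpl9, Mrpl14 and Mrpl15, all of the large subunit. Their log2 fold changes for aged against young were 0.09 ± 0.13, 0.06 ± 0.11, 0.05 ± 0.13 and -0.01 ± 0.1, and those for middle-aged against young were between -0.02 and 0.1. None passed the test. Mrpl14 had 524 to 616 normalised counts in young livers, 591 to 635 in middle-aged and 504 to 769 in aged, with aged replicate 1 the highest of the 12. Without it the 3 aged livers, at 504, 527 and 578, were within the young range or below it.

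The members were also grouped by the place of their proteins in the ribosome. Grouped by textbook position after the values were known, all 5 genes around the peptidyl transferase centre (Mrpl2, Mrpl3, Mrpl4, Mrpl16 and Mrpl27) were below 0 for aged against young, with a median of -0.163. The 3 stalk genes, which recruit translation factors (Mrpl10, Mrpl11 and Mrpl12), had a median of -0.289, and the 6 genes at the tunnel exit, among them Mrpl45, which anchors the ribosome to the inner membrane, had -0.164. The 6 genes of the central protuberance had -0.192, and 5 genes of the head and decoding region of the small subunit had -0.272. The 3 genes at the mRNA entry (Mrps2, Mrps5 and Mrps24) had -0.267. None of these groups held a called gene, where 3.58% of all genes tested were called in aged against young. In groups this small that is near the background. By descent, the 46 proteins with a bacterial counterpart had a median of -0.222 and the 30 expressed proteins found only in mitochondria -0.192. Mrps18a and Mrps18b, though homologues of bacterial S18, were counted with the second group.

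Several members have roles beyond, or apart from, the ribosome. Mrpl12, a stalk protein also reported to bind the mitochondrial RNA polymerase, had 371 to 541 normalised counts in young, 343 to 383 in middle-aged and 318 to 431 in aged livers, with a log2 fold change of -0.29 ± 0.14 for aged against young (DESeq2 adjusted p = 0.251). Mrpl58, a peptidyl-tRNA hydrolase built into the large subunit, had 269 to 373, 260 to 314 and 238 to 351, with -0.2 ± 0.15 (adjusted p = 0.597). Mrps27, an RNA-binding protein of the small subunit, had 285 to 372, 210 to 298 and 196 to 292, with -0.44 ± 0.16 (adjusted p = 0.091).

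The 3 homologues of bacterial S18 are separate genes, and their proteins sit in different places of the ribosome. Mrps18a, which sits in the large subunit, had 338 to 383 normalised counts in young and 239 to 329 in middle-aged livers, and 363, 247, 263 and 256 in the aged. Mrps18b had 85.9 to 101, 61.1 to 80.4 and 47.2 to 83.3, and Mrps18c had 212 to 339, 166 to 208 and 161 to 226. Middle-aged livers were below all young ones for all 3 genes. Log2 fold changes against young were -0.42 to -0.37 for aged and -0.48 to -0.38 for middle-aged livers, and none passed the test.

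Mrps30 also has a small-subunit symbol and a place in the large subunit. It had 177, 199, 153 and 172 normalised counts in the young livers, 149, 134, 125 and 142 in the middle-aged, and 187, 156, 148 and 156 in the aged. All middle-aged livers were below all young ones, and middle-aged replicate 1 was level with aged replicate 3. Its log2 fold change for aged against middle-aged, 0.23 ± 0.13, was among the 4 highest (DESeq2 adjusted p = 0.599). Mrps33, Mrpl28 and Mrpl52 had the other 3, at 0.29 ± 0.3, 0.24 ± 0.18 and 0.2 ± 0.2. In each of these 3, aged replicate 1 was the highest aged liver, with 95.3, 664 and 442 normalised counts.

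Mrps5 and Mrps11 were among the lowest for aged against middle-aged. Mrps5, which lines the entry of the mRNA channel, had 387, 355, 353 and 313 normalised counts in the young livers, 350, 364, 341 and 298 in the middle-aged, and 315, 283, 280 and 293 in the aged. Young and middle-aged livers overlapped, and 3 of 4 aged livers were below all others. Its log2 fold change was -0.27 ± 0.1 for aged against young (DESeq2 adjusted p = 0.142) and -0.06 ± 0.1 for middle-aged against young (adjusted p = 0.81). For Mrps11 the aged-against-middle-aged value was -0.09 ± 0.15 (adjusted p = 0.936), and its partner Mrpl46, across the shared start region, had 0.06 ± 0.13.

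The rows at the bottom of the table need separate reading. Mrpl53 had 0 counts in all 12 livers, which allows a CPM of up to 0.285 to 0.369 by the floor of 3 counts, for counting error only. Of its exonic bases 88.0% lie within the same-strand gene Gm42688, which had 0 to 3 counts per liver. Mrps36, now known as a subunit of the 2-oxoglutarate dehydrogenase complex and not of the ribosome, had 0.963 to 9.93 normalised counts and was the member whose value rests on the fewest reads. Its log2 fold change for aged against young was -0.58 ± 0.64. The 5 pseudogenes of the family had at most 13 counts each over all livers.

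Other members share exons with neighbours. Of the 78, 33 share at least 1 exonic base with another gene and 17 at least 10% of their exonic length. Mrps25 shares 69.8% with Nr2c2 and Mrps34 shares 63.4% with Mapk8ip3, both on the opposite strand. Mrpl19 shares 36% with Gcfc2 and Mrpl43 33.4% with Twnk, also opposite. The strand setting of the counting is not given in the sources used here, so that single-gene values of these 4 are uncertain. Mrpl20, Mrpl42, Mrpl57, Mrps22 and Mrps17 share no exonic base with another gene.

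Proteins of the mitochondrial ribosome with other symbols gave values of like sign. All 5 (Dap3, Ptcd3, Chchd1, Aurkaip1 and Gadd45gip1) were below 0 in both older groups, with medians of -0.292 for aged and -0.312 for middle-aged against young. Chchd1, of the small subunit, was the 1 called, at -0.54 ± 0.14 in middle-aged livers (DESeq2 adjusted p = 0.00579). Over all genes tested, 3.58% were called in aged and 6.41% in middle-aged against young. Factors that build the ribosome had medians of -0.126 and -0.19 over 26 genes. Malsu1, which binds Mrpl14 and keeps the subunits apart during assembly, was the 1 called, at -0.48 ± 0.14 for aged (adjusted p = 0.025) and -0.42 ± 0.14 for middle-aged livers (adjusted p = 0.0423), while Mrpl14 itself had 0.05 and 0.1. A single call among 26 assembly genes is near the shares of all genes called. For aged against young, no assembly gene was called without young replicate 2 and 3 were without aged replicate 1, which also left 3 of the 5 ribosomal proteins called, all lower. In these fits 1.92% and 10.5% of all genes were called.

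Factors that work on the finished ribosome, such as Tufm and Gfm1, had medians of -0.047 and -0.055 over 14 expressed genes, and none was called. None of the 6 expressed genes of mitochondrial transcription was called, with medians of -0.015 and -0.154. With 3.58% and 6.41% of all genes called, the absence of calls in sets this small is near the background. Among 10 regulators of nuclear genes for mitochondria, Ppargc1b was called higher in middle-aged than in young livers, at 1.18 ± 0.29 (DESeq2 adjusted p = 0.00278), and lower in aged than in middle-aged livers, at -1.16 ± 0.28 (adjusted p = 0.00763), with 17 to 80.2 normalised counts in all. In aged against middle-aged livers 1.14% of all genes were called. Of 8 markers of mitochondrial content, Phb (-0.33 ± 0.1, adjusted p = 0.0346) and Timm23 (-0.29 ± 0.09, adjusted p = 0.0492) were called lower in aged than in young livers (1.71% of all genes were called lower), and neither was without young replicate 2. The 8 markers had medians of -0.106 for aged and -0.056 for middle-aged against young, with 6 below 0 in each. Cs and Vdac1 were above 0 in both, at 0.06 ± 0.14 and 0.03 ± 0.07 for aged livers.

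The products that these ribosomes translate were read from the same libraries. Of the 13 mitochondrially encoded mRNAs, 8 averaged 10 or more normalised counts, with medians of -1.078 for aged and -0.902 for middle-aged against young. Among these 8, mt-Atp6 had 0 to 238 normalised counts and no adjusted p. The other mRNAs were near the floor, with 0 counts in every liver for mt-Nd3, mt-Nd4l and mt-Atp8. For mt-Co2 and mt-Co3 the highest values were 20.4 and 4.25. The cause of these low counts was not tested. Of 7 tested, 6 were called lower in aged and 1, mt-Cytb, in middle-aged livers (1.71% and 2.9% of all genes were called lower). Without young replicate 2 the medians were -0.647 and -0.42, with 5 and 1 called, and without aged replicate 1 there were 2 and 1. The shares of all genes called in either direction were 1.92% and 2.83% without young replicate 2. They were 10.5% and 9.72% without aged replicate 1. Their summed normalised counts were 640441 to 1932858 in young livers, with young replicate 2 the highest, 549418 to 763476 in middle-aged and 453630 to 638499 in aged. Both mitochondrial rRNAs were below 0 in aged livers, mt-Rnr1 at -0.96 ± 0.38 and mt-Rnr2 at -0.76 ± 0.24, and neither passed the test.

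The most similar gene sets were the cytosolic ribosomal proteins and the nuclear respiratory chain subunits. Cytosolic ribosomal protein genes had medians of -0.299 for aged and -0.372 for middle-aged against young, with 3 of 82 and 24 of 79 tested called, all lower. Respiratory chain subunits had -0.249 and -0.313, with 6 of 78 and 15 of 76 called, all lower. Over all genes tested, DESeq2 called 1.71% lower in aged and 2.9% lower in middle-aged against young. With edgeR no cytosolic ribosomal gene was called in either comparison, and 1 respiratory chain gene was called in each (1.31% and 2.17% of all genes). The mitochondrial ribosomal medians of -0.21 and -0.244 were nearer to 0 than those of both sets, but the order depended on the setting, and no test of that difference was made. Relative to all genes, with offsets for length and GC content, the members stood at -0.169 in both comparisons and the respiratory chain subunits at -0.144 and -0.163. The cytosolic ribosomal genes, at -0.222 and -0.239, were still farther from 0 than the members there. Within replicates 3 and 4 the members, at -0.246 and -0.28, were farther from 0 than the cytosolic ribosomal genes (-0.219 and -0.255) and the respiratory chain subunits (-0.191 and -0.276). In aged against middle-aged livers the medians were 0.075, 0.054 and 0.021, and none of the 3 sets held a called gene.

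Markers of other cell types moved with age in a few cases. As background, 3.58% of all genes were called in aged and 6.41% in middle-aged against young, and 1.14% in aged against middle-aged. The erythroid markers Hbb-bs (-1.67 ± 0.53, DESeq2 adjusted p = 0.0498) and Alas2 (-0.6 ± 0.18, adjusted p = 0.0255) were called lower in aged than in young livers, and the summed level of the 3 erythroid markers was 16870 to 60072 in young, 9746 to 35995 in middle-aged and 7398 to 15834 in aged livers. Without young replicate 2 no erythroid marker was called, and without aged replicate 1 all 3 were. The cholangiocyte marker Sox9 was called higher in aged livers, at 0.86 ± 0.24 against young (adjusted p = 0.0169) and 0.95 ± 0.24 against middle-aged livers (adjusted p = 0.0117), with a summed level of the 5 markers of 280 to 352 in young and 223 to 408 in aged livers. Of the 4 cholangiocyte markers averaging 10 or more normalised counts, 3 were below 0 in each of these comparisons. The medians were -0.189 and -0.104. No marker of hepatocytes, macrophages, endothelial, stellate, B, T and NK cells or neutrophils was called in any of the 3 comparisons, with all 12 livers in the fit. In aged against young, 3 of 5 T and NK cell markers and 2 of 4 neutrophil markers got an adjusted p. For middle-aged against young 0 and 1 did, and for aged against middle-aged 0 and 0. All 5 B cell markers got one in aged against young, 4 in middle-aged against young and 3 in aged against middle-aged. A marker without an adjusted p could not be called, so its lack of a call does not show that it was unchanged. Without aged replicate 1, 4 hepatocyte markers passed the test in aged against young, 2 in each direction, and 2 neutrophil markers were called lower in each older age, with medians of -2.625 for aged and -2.418 for middle-aged against young. The part of these cells in the members' values was not tested.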

How the data were processed

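RNA-seq was measured in 12 livers, 4 each at 3, 12 and 18 months. The authors deposited whole-number counts per gene, without normalisation. The submitters' processing notes name STAR 2.5.2b, SAMtools 1.9, featureCounts, R 3.6.3, edgeR 3.28.1, DESeq2 1.26.0 and the builds mm10 and GRCm38; strand and multi-mapping settings are not given in the sources used here. How the 12 livers were prepared is uncertain, since the study also used public RNA-seq of 3 ages. Groups and replicate numbers came from sample titles, and by the labels each library is from a separate animal, though the design text speaks of 3 replicates per age.

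Symbols came from GENCODE M21, in which 53274 of 53465 identifiers were found, and the tests did not include the 92 spike-in rows. The 28449 genes with at least 1 count entered DESeq2 1.42.0 (R 4.3.3) in a single fit of 12 livers with age as the term, following the study's stated tool and 5% threshold (adjusted p under 0.05 over all genes tested, default independent filtering). Wald tests served for each 2 ages and a likelihood ratio test for all 3. Log2 fold changes carry standard errors (SE). Medians and counts of signs used genes averaging 10 or more normalised counts. Alternatives were edgeR 4.0.16, other scalings, filters, a replicate block, spike-in sets and each liver left out; offsets for length and GC content (lowess span 0.3), and list counts and overlaps without single livers, were added after seeing the data. Levels per kb use the union of annotated exons. On simulated data for aged against young the share of false calls was above the 5% threshold with DESeq2, at 14%. It was below the threshold with edgeR, at 4.83%. The DESeq2 calls of single members are to be read with that excess in mind.

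The members, lists and positions in the ribosome were chosen with earlier results of these data known. Named genes were the called members, the 4 highest and 4 lowest log2 fold changes in each comparison among genes with a mean of at least 50, the 5 highest and 3 lowest levels per kb, and Mrps18a, Mrps18b, Mrps18c, Mrps30, Mrps36, Mrpl12, Mrpl57, Mrpl58 and Mrps27. Mrpl50, Mrpl46 and the genes listed by position or shared exons were named after their values were seen.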

Additional observations from a re-analysis of the deposited data

Results flagged for a closer look

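In 2 of 99 groups of 4 livers examined, 1 liver stood far from the other 3 by Dixon's test at the 95% level, where chance gives about 4.95. Mrpl28 had 664 normalised counts in aged replicate 1 and 373 to 399 in the other aged livers, with a gap of 0.911 of the range. Mrps18a had 363 in aged replicate 1 and 247 to 263 in the others, with a gap of 0.859.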

How the results depend on the processing

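All 12 livers gave 4 called members in aged and 3 in middle-aged livers, each against young, and 4 across ages. With edgeR the counts were 1, 0 and 1, and without independent filtering 2, 0 and 2. Fits of only the groups compared gave 2 and 13. The shares of all genes called in these fits and in those without independent filtering are not given here. Those member counts therefore cannot be set against the background. Within replicates 1 and 2, and within replicates 3 and 4, all 3 counts were 0. Of all genes, 1.24% and 2.18% were called in aged and middle-aged against young within the first set, and 4.22% and 3.64% within the second. The cause of these differences in members called was not tested, and the fits within sets also had fewer livers. Leaving out each liver in turn gave 1 to 21, 0 to 14 and 2 to 20, the highest without aged replicate 1 in each case, and 0 for aged against middle-aged throughout. The share of all genes called rose as well without aged replicate 1. It was 10.5% for aged and 9.72% for middle-aged against young, where all 12 livers gave 3.58% and 6.41%. The share across the 3 ages without that liver is not given here. The 7 calls of single members kept their sign under all 23 alternatives tried for them, but not all kept the call. In aged against young Mrpl20 kept it in 20, Mrpl42 in 17, Mrpl57 in 12 and Mrps22 in 10, and in middle-aged against young Mrpl20 and Mrpl42 in 9 each and Mrps17 in 2.

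The replicate numbers belong to different animals, and livers sharing a number did not deviate together (mean correlation -0.104 between young and aged). With the replicate block the counts were 2, 0 and 1, and with edgeR and the block 0, 0 and 0. DESeq2 with the block called 2.85% of all genes in aged and 3.23% in middle-aged against young. The share across the 3 ages with the block, and the shares for edgeR with the block, are not given here.

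Spike-in scaling reversed the medians: 0.95 for large and 0.924 for small in aged, 1.24 and 1.182 in middle-aged against young, and -0.32 and -0.313 in aged against middle-aged. Leaving out each liver moved the large median within -0.277 to -0.129, -0.245 to -0.181 and -0.066 to 0.072, and the small within -0.348 to -0.183, -0.349 to -0.236 and -0.09 to 0.098. The log2 ratio of large over small sums was 0.102 and 0.095 per kb for aged and middle-aged against young, and 0.102 and 0.04 for aged within the spike-in sets. Leaving out livers gave 0.058 to 0.084, 0.052 to 0.078 and -0.004 to 0.017. Counting error had a median of 5.84% per member and liver, below the 12.2% between livers of an age.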
